A study of Homo sapiens with 9 samples.

Results

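Connexins are the proteins of gap junctions, and 5 connexin genes (GJB2, GJB5, GJB6, GJC1 and GJA1) were followed here across 9 one-colour Affymetrix arrays of MCF10A cells. MCF10A cells come from human breast epithelium, are immortalized but form no tumours, and need added EGF to grow. The members were found by symbol, as the probe sets that the platform annotation assigns to exactly 1 of these genes, which gave 8 probe sets for 5 of the 19775 genes named on the array. The symbols themselves were selected on earlier results from these same arrays, and no record says which of the 3 comparisons was used. All member values are therefore given as a description, without p-values, and support no inference about connexins as a family. Member probe sets with a limma adjusted p under 0.05 are only counted, beside the share of all probe sets. Those counts are no test of the members either.

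There were 3 arrays in each of 3 groups, labelled as biological replicates. Cells of the vector group had received an empty pBabe retrovirus. The group labelled ERBB2 had received pBabe-ErbB2, which encodes a receptor tyrosine kinase. The EGF group had received the empty virus and then EGF at 50 ng/ml during the last 2 h. All 3 groups had been moved, once infected, to medium with 2% horse serum and no other EGF, from a maintenance medium with 5% serum and 20 ng/ml EGF that also held hydrocortisone, cholera toxin and insulin. The labels do not say whether replicates came from separate infections, so errors measure the spread between these samples, which may be technical. RNA came from whole cultures, in which fewer expressing cells and less RNA per cell cannot be told apart.

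Connexins assemble into hemichannels in the cell membrane, and hemichannels of neighbouring cells dock into channels that pass ions and small molecules. Which connexins a cell makes sets which channels it can form, because not all connexins combine. In the mammary gland connexins are found in luminal and in myoepithelial cells, and GJA1 (Cx43) is regulated by growth factor kinases, among them ERK and SRC, that phosphorylate its tail. Pannexins are structurally similar proteins that form channels in single membranes and release ATP.

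Signals are given on the authors' linear scale after MAS5, the Affymetrix algorithm that gives 1 background-corrected signal per probe set. Differences are given as log2 changes on the log2(signal + 16) scale with the standard error (SE) of a limma fit over all 9 arrays, so they understate changes of dim genes. A gene was called at a Benjamini-Hochberg adjusted p under 0.05. A filter that dropped the lowest 40% of probe sets by mean left 6 of the 8 member probe sets: 1 each of GJB2 and GJB5, and all 4 of GJC1. The single probe sets of GJA1 and GJB6 did not pass, and their values are given as signals only. Levels of connexins are compared within a probe set and not between genes. Only signals of cell type markers are summed over genes, and such sums are weighted to the brightest probe sets.

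Epithelial identity was checked with 12 marker genes, of which 8 had a probe set. All 8 had a mean signal of at least 100 in each group, but they went opposite ways: in the arrays labelled ERBB2, 5 were lower than in vector arrays and 2 higher. The basal keratin KRT14 fell from 2640 ± 432 (SD, n = 3) to 148.9 ± 9.66 (log2 change -4.00 ± 0.10 SE, limma adjusted p = 9.072e-17) and was at 1758 ± 48.5 with EGF, while EPCAM rose from 1063 ± 89.7 to 2357 ± 313 and the luminal keratin KRT18 from 3559 ± 221 to 6345 ± 446. The keratin KRT8 went the other way from KRT18, from 1304 ± 144 to 991.4 ± 104 (-0.39 ± 0.09, limma adjusted p = 0.001918). The other markers called lower were KRT5, ITGB4 and CDH1, and ITGA6 was not called. The summed signal of the 8 was between 22860 and 25670 in vector arrays, between 18130 and 19410 in arrays labelled ERBB2 and between 21230 and 24110 with EGF. Of 8 fibroblast markers 4 passed the filter, with a summed signal of 1373 to 1544 in vector arrays, 419.1 to 601.5 in arrays labelled ERBB2 and 538.1 to 589.1 with EGF. Most of it came from DCN, while COL3A1, PDGFRA, PDGFRB and LUM did not pass. Of 7 blood and endothelial markers with a probe set 3 passed, with sums between 249.4 and 329.9 over all arrays, mostly CD14. The adhesion molecule PECAM1 was higher in the arrays labelled ERBB2 than in vector arrays (90.1 ± 0.891 against 29.0 ± 12, SD, n = 3; log2 change 1.27 ± 0.22 SE, limma adjusted p = 7.803e-05) and 39.9 ± 10.1 with EGF, while the endothelial markers CDH5 and VWF did not pass the filter. The brightest ERBB2 probe set read 174.0 ± 48.0 (SD, n = 3) in vector arrays and 98.8 ± 23.1 in those labelled ERBB2 (log2 change -0.71, limma adjusted p = 0.006756). A dimmer one read 12.6 ± 8.78 and 35.6 ± 2.51 (0.89, limma adjusted p = 0.008824). Another read 14.8 ± 6.77 and 17.1 ± 7.17 and was not called (0.10, limma adjusted p = 0.8236). The label is thus not settled by the arrays, and the group is called "labelled ERBB2". The 5' control probe set of ACTB, divided by the 3' one, gave 0.701 to 0.796 on arrays labelled ERBB2 and 0.325 to 0.505 on the rest. The same ratio for GAPDH overlapped (0.838 to 0.901 against 0.762 to 0.885), and the 18S rRNA control read 11930 to 13510 against 1945 to 4570. The part of these markers and controls in the connexin values was not tested.

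GJB2 lies on chromosome 13 between GJA3 and GJB6 in the order of protein-coding genes of the RefSeq table. The 250 bases before the annotated start of each are shown because the 3 genes are neighbours and the GJB2 probe set and the brightest GJA3 probe set had the same order of groups. They are from RefSeq on GRCh38.p14, 5′ to 3′ on the minus strand, with capitals on the motif matches found, at chr13:20192939-20193188 for GJB2, chr13:20161053-20161302 for GJA3 and chr13:20230979-20231228 for GJB6.
GJB2: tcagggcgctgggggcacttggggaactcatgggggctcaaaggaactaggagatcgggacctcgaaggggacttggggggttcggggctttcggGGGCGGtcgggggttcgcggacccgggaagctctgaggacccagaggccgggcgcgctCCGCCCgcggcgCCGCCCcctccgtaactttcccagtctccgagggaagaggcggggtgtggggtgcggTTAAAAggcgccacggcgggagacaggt
GJA3: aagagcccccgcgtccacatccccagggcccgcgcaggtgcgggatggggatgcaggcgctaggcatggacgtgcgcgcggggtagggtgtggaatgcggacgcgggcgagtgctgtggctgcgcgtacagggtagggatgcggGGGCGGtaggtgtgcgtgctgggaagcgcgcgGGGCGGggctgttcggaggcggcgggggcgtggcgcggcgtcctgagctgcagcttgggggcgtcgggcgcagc
GJB6: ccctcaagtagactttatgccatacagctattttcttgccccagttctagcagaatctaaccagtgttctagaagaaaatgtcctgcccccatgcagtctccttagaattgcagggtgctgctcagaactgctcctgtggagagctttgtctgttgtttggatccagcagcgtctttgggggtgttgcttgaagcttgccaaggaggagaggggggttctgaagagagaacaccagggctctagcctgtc

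The motifs searched on both strands were TATAAA (the TATA box), its variant TTAAAA, the motif GGGCGG (the GC box), TGANTCA (the AP-1 site), CACGTG (an E-box), CCGGAA (an ETS core) and TGACGTCA (the CRE). No match overlapped another. GJB2 held TTAAAA with its first base 28 bases before the start, a motif found in 16.4% of the 35116 promoter windows of this length in the table. It also held GGGCGG at 155 bases and, on the opposite strand, at 97 and 85 bases before the start. GJA3 held GGGCGG at 106 and 74 bases, and 42.6% of all windows hold that motif. None of the 7 motifs was found in the GJB6 window. TGANTCA, present in 6.57% of windows, CCGGAA (14.5%), TATAAA (10.7%), CACGTG (6.34%) and TGACGTCA (1.65%) were in none of the 3 windows. The GC content was 70.0% for GJB2, 74.8% for GJA3 and 50.8% for GJB6, and 20.8%, 10.8% and 66.3% of all windows reach those values.

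GJB2 encodes Cx26, a connexin of epidermis, cochlea and glandular epithelium whose loss causes inherited deafness. Its probe set 223278_at read 23.9, 28.2 and 24.6 in the 3 vector arrays, 84.7, 115.3 and 73.3 in those labelled ERBB2, and 941.8, 878.7 and 913.5 with EGF. All 3 groups were apart, in the order vector, labelled ERBB2, EGF, and no 2 neighbours in that order overlapped. The means were 25.6 ± 2.32 (SD, n = 3), 91.1 ± 21.7 and 911.3 ± 31.6.

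The EGF mean of GJB2 was 35.6 times the vector mean, a log2 change of 4.48 ± 0.14 (SE). The mean of the arrays labelled ERBB2 was 3.56 times the vector mean (1.35 ± 0.14), and the EGF mean was 10.0 times theirs (log2 change labelled ERBB2 minus EGF, -3.13 ± 0.14). The size of the first value depends on the added 16: it was 5.10 with a pseudocount of 1 and 3.44 with 64. Whether the vector signals of GJB2 exceed background cannot be read from these values, since no detection p was used.

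GJB5 encodes Cx31.1, a connexin of stratified epithelium and placenta. Its probe set 206156_at read 264.2, 323.6 and 332.7 in vector arrays, 227.9, 217.7 and 201.3 in arrays labelled ERBB2, and 555.6, 491.6 and 575.6 with EGF. The order was labelled ERBB2, vector, EGF, again without overlap between neighbours, so the vector group stood in the middle for GJB5 and lowest for GJB2. The gap between the highest array labelled ERBB2 and the lowest vector array, 227.9 against 264.2, was about as wide as the vector SD.

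The means of GJB5 were 306.9 ± 37.2 (SD, n = 3) in vector arrays, 215.6 ± 13.4 in those labelled ERBB2 and 540.9 ± 43.9 with EGF. The EGF mean was 1.76 times the vector mean (log2 change 0.79 ± 0.11 SE). The vector mean was 1.42 times that of the arrays labelled ERBB2 (log2 change of the latter -0.47 ± 0.11). The EGF mean was 2.51 times that of the arrays labelled ERBB2 (-1.26 ± 0.11).

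GJB6 encodes Cx30, a partner of Cx26 in skin and inner ear. Its only probe set, 231771_at, never exceeded 1.94. It read 0.586, 0.687 and 1.94 in vector arrays, 1.23, 0.724 and 0.782 in arrays labelled ERBB2 and 0.469, 0.528 and 0.396 with EGF. By its mean it lay within the lowest 0.0696% of probe sets, so no level and no fold are given. The EGF arrays were the lowest of the 9, at values too small to order. The only probe set of this neighbour of GJB2 thus read near 0 also in the EGF arrays where GJB2 was highest. Such a reading does not show that the GJB6 transcript was absent.

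**Figure D1:**
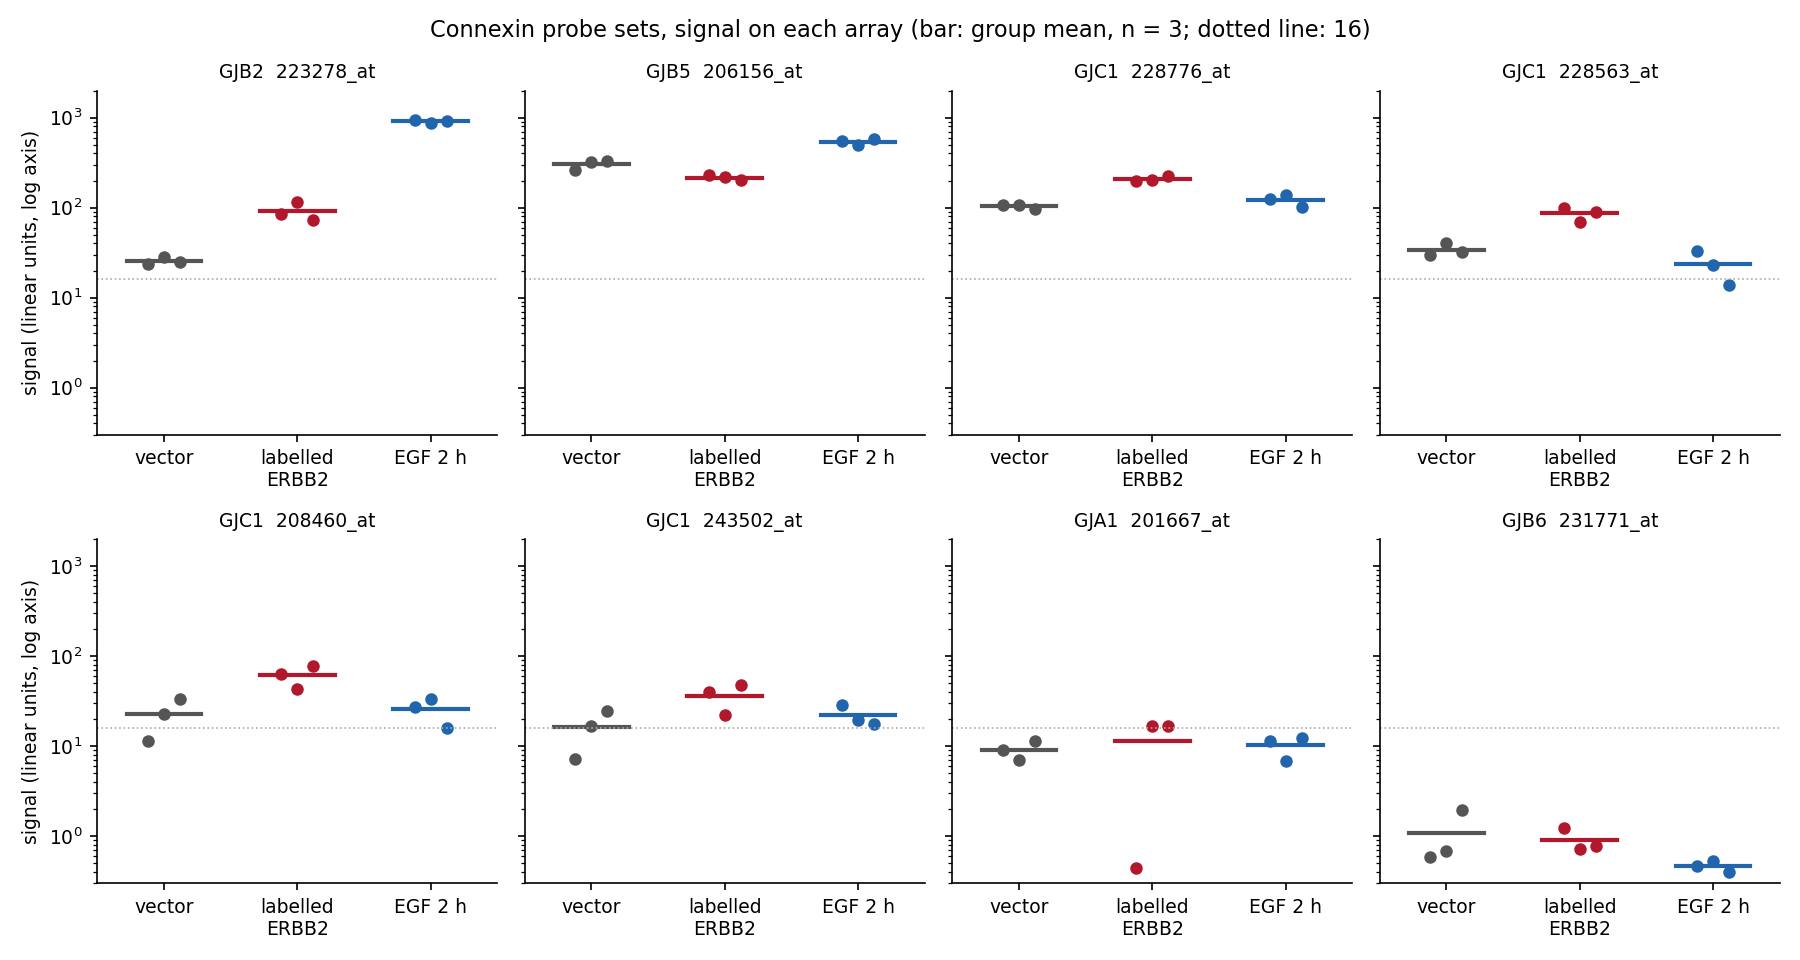
Signal of the 8 connexin probe sets on each of the 9 arrays on a log axis, with points for arrays, bars for group means (n = 3) and a dotted line at 16, the pseudocount. GJB2 reads 25.6, 91.1 and 911.3 on average in vector, labelled ERBB2 and EGF arrays, the 4 GJC1 probe sets have their highest means in the arrays labelled ERBB2, and GJA1 and GJB6 lie at or under about 17 throughout.

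GJC1 encodes Cx45, best known from cardiac conduction tissue and vascular smooth muscle, and was measured by 4 probe sets. The brightest, 228776_at, read 107.1, 108.2 and 95.4 in vector arrays, 195.9, 204.4 and 225.0 in those labelled ERBB2, and 123.4, 137.6 and 102.3 with EGF. The arrays labelled ERBB2 lay above all others, whereas EGF and vector arrays overlapped. The mean labelled ERBB2 was 2.01 times the vector mean (208.4 ± 14.9 against 103.6 ± 7.11, SD, n = 3; log2 change 0.91 ± 0.14 SE) and 1.72 times the EGF mean of 121.1 ± 17.8 (0.72 ± 0.14). The difference between EGF and vector was 0.19 ± 0.14. PECAM1 and the 18S control were also highest in the arrays labelled ERBB2, and their part in the GJC1 values was not tested.

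The dimmer GJC1 probe sets had the same order for the arrays labelled ERBB2. Probe set 228563_at had means of 34.1 ± 5.55 in vector arrays, 86.1 ± 15.3 labelled ERBB2 and 23.3 ± 9.61 with EGF. Probe set 208460_at had means of 22.5 ± 11.2, 61.5 ± 17.4 and 25.5 ± 8.99, and 243502_at 16.3 ± 8.75, 36.4 ± 13 and 22.0 ± 5.94. Over vector the log2 changes of these 3 were 1.02 ± 0.22, 1.03 ± 0.26 and 0.70 ± 0.27, and only for 243502_at did the groups overlap. With EGF their changes were -0.37 ± 0.22, 0.13 ± 0.26 and 0.26 ± 0.27, so the 4 probe sets did not share a sign there. All 4 probe sets report on 1 gene and are not replicates.

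GJA1 encodes Cx43, the most widely expressed connexin and a substrate of ERK and SRC. Its single probe set 201667_at stayed under 17 on every array. It read 9.06, 6.93 and 11.5 in vector arrays, 0.443, 16.7 and 16.6 in arrays labelled ERBB2, and 11.4, 6.75 and 12.4 with EGF. The groups overlapped in all 3 comparisons, with 1 array labelled ERBB2 the lowest of all and the other 2 the highest. Its mean lay at the 37.6th percentile of probe sets, below the filter. A low signal of 1 probe set does not show that the transcript was absent.

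In counts, 6 of the 6 member probe sets past the filter were called between labelled ERBB2 and vector (5 higher, 1 lower), 2 of 6 between EGF and vector (both higher) and 5 of 6 between labelled ERBB2 and EGF (3 higher, 2 lower). Of all 32768 probe sets tested, 38.7%, 28.8% and 23.8% were called in these comparisons. Groups did not overlap for 5, 2 and 5 of the 6 member probe sets, against 47.0%, 42.2% and 37.9% of all. The members were chosen with these arrays' results known, so these calls are no test of the members and are given as a description. Also, 4 of the 6 probe sets belong to GJC1, so nothing is read from these shares. The comparisons share arrays, and their values for a gene are not independent.

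The rest of the family was taken from a list of 19 other connexins and pannexins written from knowledge of the family. Earlier results of these arrays were known when it was written, so its counts and p-values are a description. Of these 11 had a single-gene probe set and 7 passed the filter. With EGF 2 of the 7 rose, GJA3 and PANX1, and none fell. The same 2 were higher in the arrays labelled ERBB2 than in vector arrays, with none lower, and both were lower there than with EGF. Among all 13726 genes tested, 17.2% rose and 18.9% fell with EGF, 20.8% were higher and 25.0% lower in the arrays labelled ERBB2 than in vector, and 12.8% were higher and 16% lower than with EGF. The median log2 change of the 7 was -0.07, -0.08 and -0.03 in these comparisons, and that of all genes -0.10, -0.07 and 0.01.

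GJA3 encodes Cx46, a connexin of the lens fibre. Its probe set 239572_at read 33.4, 51.0 and 37.6 in vector arrays, 98.3, 115.1 and 84.4 in arrays labelled ERBB2 and 212.4, 177.9 and 168.2 with EGF, so that all 3 groups were apart in the same order as for GJB2. It rose 4.57-fold in mean signal with EGF (log2 change 1.84 ± 0.17 SE, limma adjusted p = 5.745e-08). It was higher by 1.03 ± 0.17 in the arrays labelled ERBB2 (limma adjusted p = 4.613e-05) and lower there than with EGF (-0.81 ± 0.17, limma adjusted p = 0.001083). A second GJA3 probe set stayed between 1.49 and 2.51 on all 9 arrays and did not pass the filter.

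PANX1 encodes a channel that releases ATP from cells. Its brightest probe set 227107_at read 123.5, 154.1 and 138.1 in vector arrays, 337.2, 344.1 and 407.0 in arrays labelled ERBB2 and 482.0, 462.1 and 466.3 with EGF, again without overlap. The log2 change was 1.66 ± 0.11 with EGF (limma adjusted p = 1.043e-09) and 1.29 ± 0.11 in the arrays labelled ERBB2 (limma adjusted p = 1.262e-08). Its 3 further probe sets were called higher in both comparisons. The difference of labelled ERBB2 from EGF was small (-0.36 ± 0.11, limma adjusted p = 0.02123), 1 further probe set had the other sign and 1 of the 3 was called. That call ended under 5 of 20 alternatives, with an adjusted p between 0.003152 and 0.07937: without ERBB2 replicate 1 (0.07937) or 2 (0.07513), without EGF replicate 1 (0.07161) or 3 (0.06019), and without a variance trend (0.07023).

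**Figure D2:**
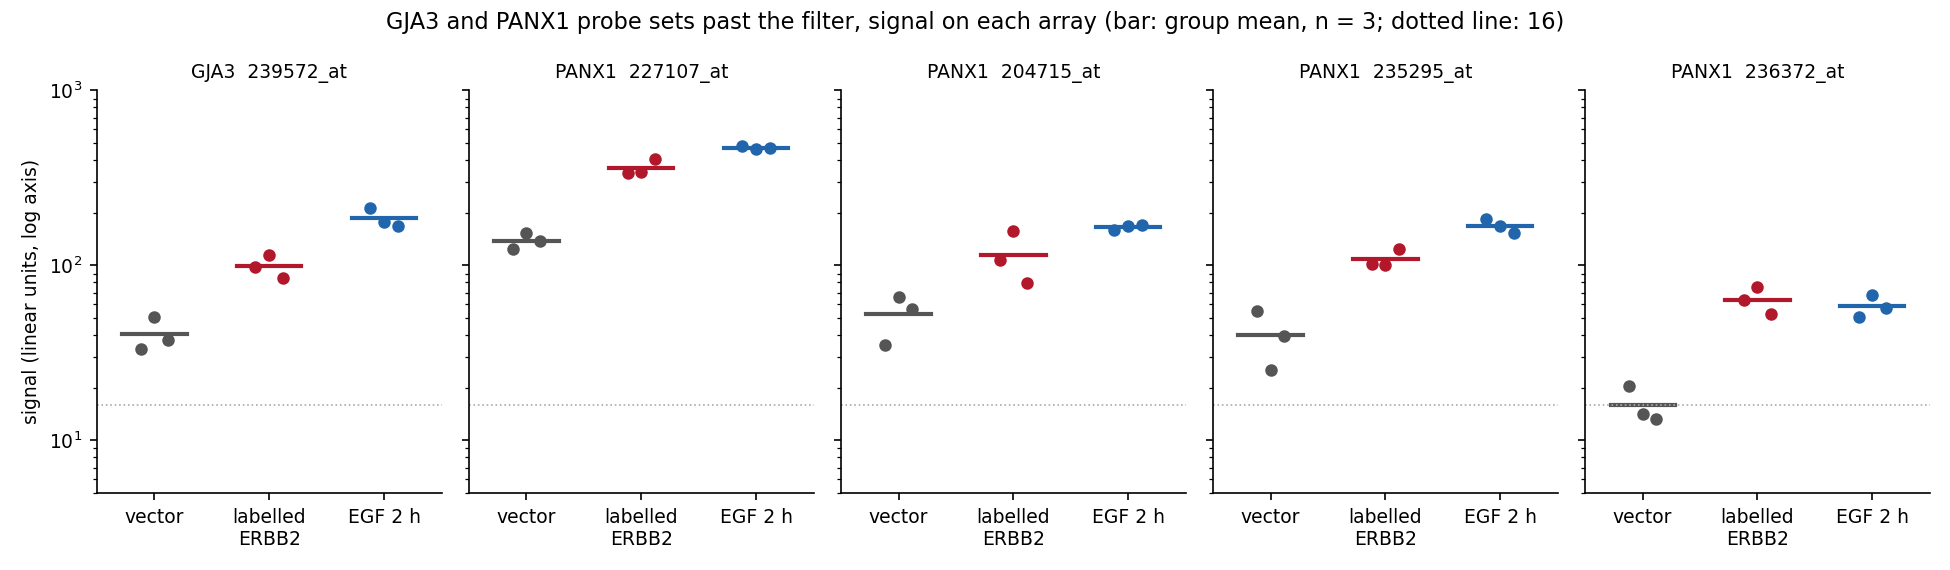
Signal of the GJA3 probe set and the 4 PANX1 probe sets past the filter on each array, on a log axis with bars for group means (n = 3) and a dotted line at 16. The vector arrays are the lowest in all 5 panels, and the GJA3 means are 40.7, 99.3 and 186.2 from left to right.

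The other 5 tested genes of the family list were not called in any of the 3 comparisons. They were GJB1 (Cx32, a connexin of liver and luminal mammary cells), GJD2, a neuronal connexin, GJD3, GJA10 and PANX2, with group means between 8.81 and 27.0 and log2 changes between -0.56 and 0.17. GJA4, GJA5, GJD4 and PANX3 did not pass the filter. GJA5 (Cx40, of atrium and arterial endothelium) was singled out after its values were seen. Its probe set 226701_at read 1.46, 12.6 and 2.76 in vector arrays, 20.6, 26.2 and 32.4 in arrays labelled ERBB2, and 8.44, 0.676 and 3.55 with EGF. The second GJA5 probe set, 214466_at, overlapped between labelled ERBB2 and vector arrays (2.53 to 23.0 against 2.14 to 11.3). No change or test is given for GJA5, since it did not pass the filter, was picked by its values, and most of these signals are under 16.

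**Figure D3:**
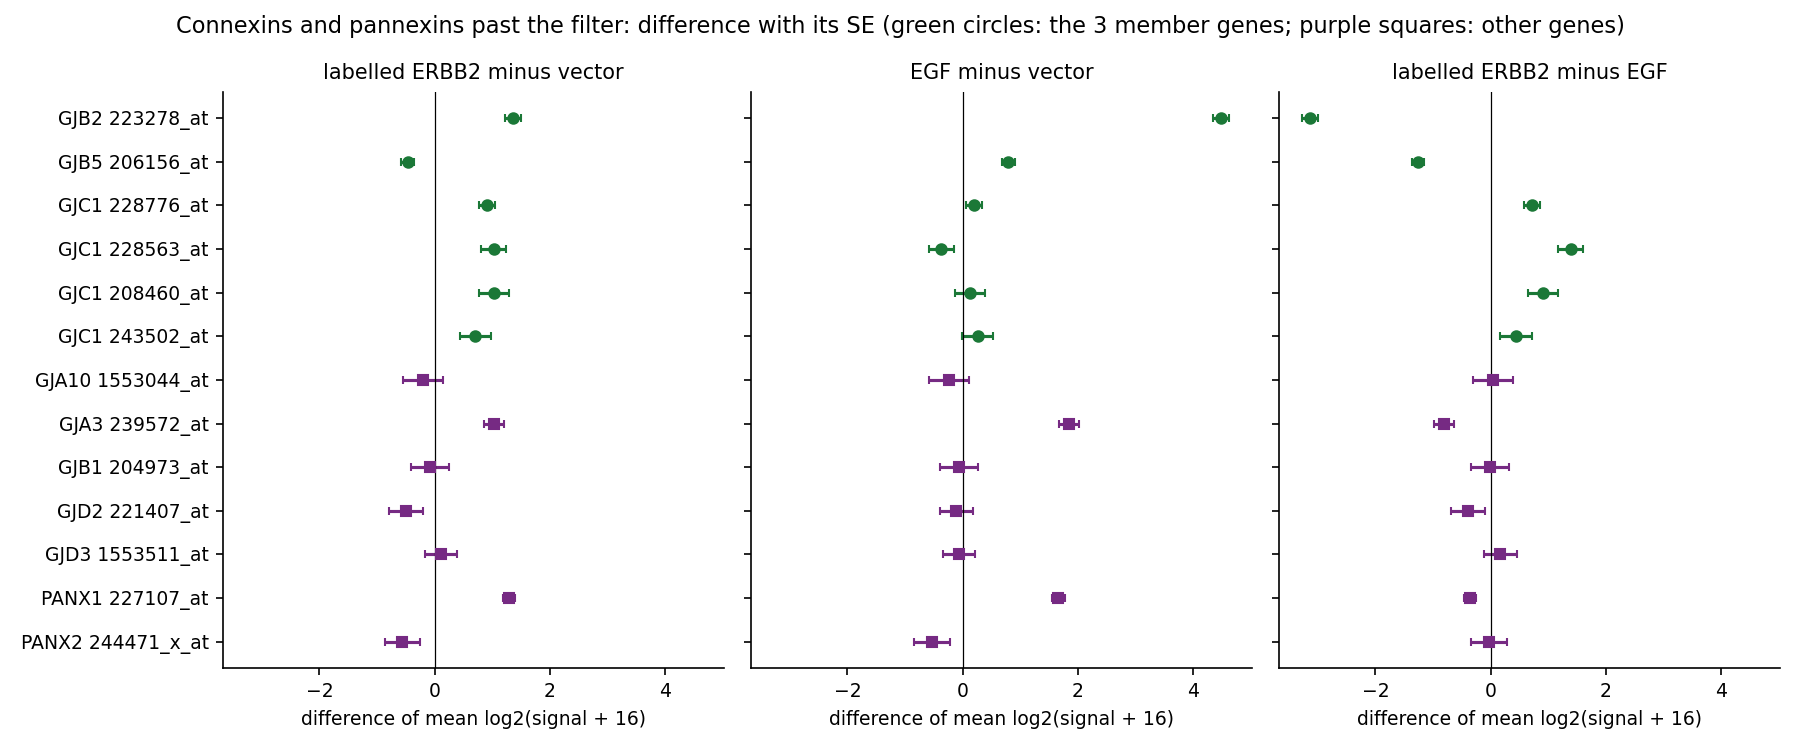
Differences of mean log2(signal + 16) with their SE for the 6 member probe sets past the filter (green circles) and the brightest probe sets of the 7 other tested genes (purple squares), 1 panel for each comparison. With EGF, GJB2 (4.48) lies farthest to the right, followed by GJA3 (1.84) and PANX1 (1.66), while GJB5 changes sides between the first panel (-0.47) and the second (0.79).

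Proteins that bind connexins, carry them to the membrane or remove them were followed in a list of 33 genes, of which 30 were measured and passed. This list, too, was written with earlier results of these arrays known, so its counts and p-values are a description. In the arrays labelled ERBB2, 12 of the 30 were lower than in vector arrays and 1 was higher, with a median log2 change of -0.25, where 25.0% of all genes were lower and 20.8% higher. The median of all genes was -0.07. TJP3 (ZO-3), of the scaffold family that binds connexin tails, fell from 120.4 ± 15.4 (SD, n = 3) to 20.8 ± 11 (log2 change -1.93 ± 0.22 SE, limma adjusted p = 5.179e-07). CAV1, caveolin-1, fell from 8991 ± 635 to 4255 ± 546 (-1.08 ± 0.08, limma adjusted p = 2.43e-09). The kinase PRKCD was lower by 0.83 on the log2 scale (-0.83 ± 0.20, limma adjusted p = 0.002017), and the endocytic adaptor EPS15 by 0.68 (-0.68 ± 0.11, limma adjusted p = 3.021e-05). A dimmer EPS15 probe set had the same sign without a call (-0.21 ± 0.13, limma adjusted p = 0.2129). The gene called higher was MAPRE1 (EB1), a microtubule tip protein, named after its values were seen. EZR (ezrin), which links membrane proteins to actin, was not called by its brightest probe set, whereas its 4 dimmer ones were called higher, with log2 changes between 0.76 and 1.43. The ACTB control ratio and the 18S control differed in the same arrays, and their part was not tested.

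With EGF, 6 of the 30 rose and 4 fell, with a median log2 change of -0.05, close to the 17.2% and 18.9% of all genes that did so, and this split depended on the scaling. With equal array medians 10 rose and 1 fell. TJP3 was at 31.6 ± 5.20 and fell by 1.52 on the log2 scale (limma adjusted p = 2.044e-05). CCN3, a secreted protein reported to bind Cx43, passed the test (limma adjusted p = 0.005009), with 37.8 ± 6.59 in EGF arrays and all 3 vector arrays under 16, between 7.05 and 15.8. The size of its change depends on the pseudocount (0.95 with 16, 1.64 with 1 and 0.42 with 64), and its further probe set had the same sign without a call. CSK, the kinase that restrains SRC, rose by 0.70 ± 0.12 (limma adjusted p = 0.0001969), and CAV2 by 0.63 ± 0.08 (limma adjusted p = 8.352e-06). CAV1 did not pass the test with EGF (0.08, limma adjusted p = 0.5264).

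Set directly against the EGF arrays, the arrays labelled ERBB2 were lower in 12 of the 30 genes and higher in none by their brightest probe sets (median -0.30), where 16% of all genes were lower and 12.8% higher. They were lower in 18 with equal array medians. With probe sets averaged per gene 10 were lower and 2 higher, and 1 was higher without ERBB2 replicate 2 or 3. The 4 dimmer probe sets of EZR were called higher, with log2 changes between 0.50 and 1.51, against -0.14 for the brightest. By brightest probe sets, the largest changes among the 12 genes called were CAV1 (-1.16 ± 0.08, limma adjusted p = 3.617e-09), CAV2 (-0.87 ± 0.08, limma adjusted p = 2.06e-07), the actin-binding drebrin DBN1 (-0.73 ± 0.12, limma adjusted p = 9.699e-05) and CSK (-0.64 ± 0.12, limma adjusted p = 0.0005909). Of the 2 further probe sets of CAV2, 1 was called with the same sign and 1 had the other sign. TJP1 (ZO-1), the best known connexin scaffold and also named after its values were seen, was not called in any comparison by its brightest probe set, while a dimmer one was called higher in the arrays labelled ERBB2 than in vector arrays (0.42 ± 0.13, limma adjusted p = 0.01083).

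**Figure D4:**
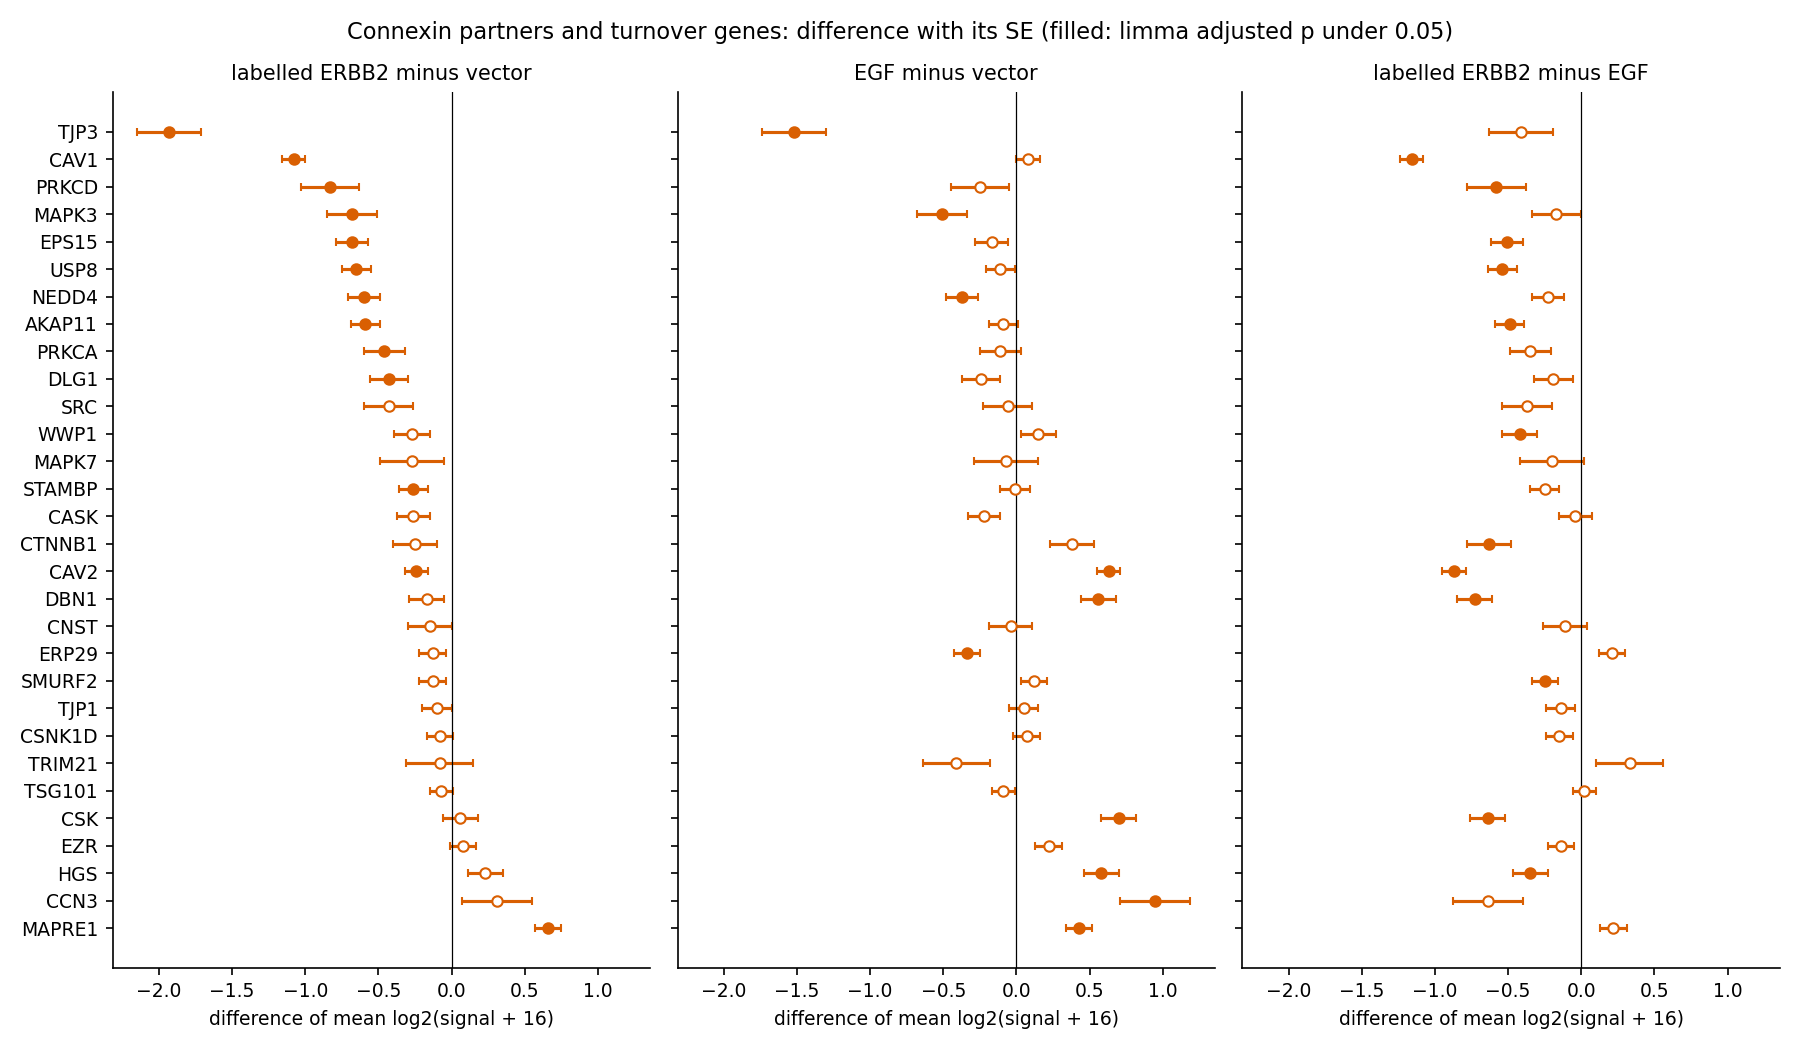
Differences of mean log2(signal + 16) with their SE for the 30 measured connexin partner and turnover genes, filled where the limma adjusted p is under 0.05, 1 panel for each comparison and genes in the order of the first. TJP3 lies at -1.93 in the first panel and -1.52 in the second, whereas CAV1 lies at -1.08 and 0.08.

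The genes whose profile was most like that of each member were found by Pearson correlation of log2(signal + 16) over the 9 arrays. With 3 groups of 3 arrays such correlations mostly reflect the 3 group means, and they are given as a description. For GJB2 they were SPIN4 (r = 0.995), TASOR2 (0.994) and PHLDA1 (0.993), the last with means of 68.8 in vector, 156.4 in labelled ERBB2 and 853.5 in EGF arrays. For GJB5 they were the integrin ITGA5 (0.984), the syndecan SDC1 (0.980) and thrombomodulin, THBD (0.979). ITGA5 read 237.3 in vector, 147.9 in labelled ERBB2 and 429.4 in EGF arrays, the same order as GJB5. For the brightest GJC1 probe set they were HYLS1 (0.994), KLLN (0.988) and WRAP53 (0.986), and HYLS1 read 146.8, 351.5 and 163.5. KLLN was dim, with means of 4.49 in vector, 22.4 in labelled ERBB2 and 8.17 in EGF arrays, so its vector and EGF means were under 16. GJA1 and GJB6 were below the filter and were given no such genes.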

How the data were processed

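RNA of 9 cultures was hybridised to Affymetrix arrays. The authors deposited a linear signal intensity for each probe set on each array. MAS5 is the tool named in the submitters' processing notes. Which version and options were used is not given in the sources used here. MAS5 subtracts background and scales each array, which takes out part of any change common to most genes. The trimmed mean (2% at each end) was 100.0 on every array. Median signals were 15.6 to 16.9 on EGF arrays and 17.9 to 20.2 on the others. Precision is limited by 3 arrays a group.

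The 62 control probe sets were left out. Symbols came from the platform annotation (41097 probe sets with 1 gene, 1801 with several, 11777 with none). Of the first, 41043 matched the RefSeq table and 0 symbols changed. Each gene was represented by its brightest probe set. limma 3.58.1 (lmFit, eBayes with trend) in R 4.3.3 was fitted to log2(signal + 16) of 32768 probe sets as 1 model of 3 group means, with p-values adjusted over all probe sets, after it was tested on simulated data. Members and lists were chosen with earlier results of these data known. Named were all member probe sets, every called gene of the family list, up to 4 called partner genes and up to 2 per further junction list in each comparison, and 3 most similar genes per member. The alternatives were other pseudocounts, filters, scalings, eBayes without trend, array weights, 2 groups only, a replicate block, probe set means and each array left out.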

Additional observations from a re-analysis of the deposited data

How the results depend on the processing

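With a pseudocount of 1 the log2 change of GJB2 was 5.10 for EGF minus vector and 1.77 for labelled ERBB2 minus vector, and that of the brightest GJC1 probe set in the latter was 1.0. With a pseudocount of 64, GJB2 was at 3.44, 0.78 and, for labelled ERBB2 minus EGF, -2.66, GJB5 at -1.11 in that last comparison, and GJC1 at 0.70 over vector and 0.56 over EGF. The pseudocount itself sets the size of such values. With equal array medians the EGF minus vector changes were 4.64 for GJB2, 0.95 for GJB5 and 0.35 for GJC1, and GJB5 was at -1.38 for labelled ERBB2 minus EGF. That scaling moved the median change of all probe sets with EGF from -0.11 to 0.05 and the share of rises among calls from 44.8% to 67.5% (from 48.7% to 31.8% for labelled ERBB2 minus EGF). No member change moved past its replicate spread when an array was left out, and none of the brightest probe sets changed sign under any of 19 alternatives. The 2 family genes called for labelled ERBB2 minus EGF became 1 with eBayes without trend and between 1 and 3 with 1 array left out (1 without ERBB2 replicate 1 or 2 or EGF replicate 1). For labelled ERBB2 minus vector the family count lay between 2 and 3 over 20 alternatives, and for EGF minus vector it stayed at 2. The counts for the partner list stayed within 1.5 times the main count. No pairing by replicate number was seen: correlations of deviations of same-numbered arrays lay between -0.03 and 0.019. These values cannot show whether same-numbered cultures were handled together. With it as a replicate block the family counts were 2, 2 and 2, and the partner counts 12, 11 and 11 against 13, 10 and 12. Without detection calls, signals near or under 16 cannot be ordered.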

Other observations

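Other cell junctions were followed with lists written from textbook knowledge, desmosomes and tight with adherens junctions. Both lists were written with earlier results of these arrays known, so their counts and p-values are a description. Of 16 desmosome genes with a probe set 12 passed the filter, of which 9 were lower and 1 higher in the arrays labelled ERBB2 than in vector arrays (median log2 change -0.82), against 25.0% lower and 20.8% higher among all genes. The plaque protein PPL fell from 1442 ± 41.0 (SD, n = 3) to 419.7 ± 50.4 (log2 change -1.75 ± 0.09 SE, limma adjusted p = 8.612e-12) and desmoplakin, DSP, from 6591 ± 631 to 2503 ± 123 (-1.39 ± 0.07, limma adjusted p = 1.213e-11). With EGF 8 of the 12 fell and 2 rose (median -0.41), against 18.9% and 17.2% of all genes, or 6 and 3 with equal array medians, with the cadherin DSG3 at -1.07 ± 0.08 (limma adjusted p = 6.334e-09) and PPL at -1.03 ± 0.09 (limma adjusted p = 4.092e-08). Between labelled ERBB2 and EGF 7 were lower and none higher, against 16% and 12.8% of all genes, led by plakophilin PKP2 (-1.43 ± 0.11, limma adjusted p = 1.094e-08) and DSP (-0.96 ± 0.07, limma adjusted p = 9.302e-09).

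Of 24 tight and adherens junction genes with a probe set 21 passed the filter. Of these 7 were higher and 3 lower in the arrays labelled ERBB2 than in vector arrays, against 20.8% and 25.0% of all genes, with occludin, OCLN, rising from 135.4 ± 2.99 to 608.8 ± 29.7 (log2 change 2.04 ± 0.12 SE, limma adjusted p = 4.895e-11) and the polarity protein PARD3 at -0.91 ± 0.18 (limma adjusted p = 0.000443). That count of 10 was 6 without vector replicate 3 or without ERBB2 replicate 1. CGN, counted as higher here and also against EGF, had means of 9.26 in vector, 27.9 in labelled ERBB2 and 4.41 in EGF arrays. All its vector and EGF signals were under 16. It passed the filter near its edge, at the 43.3rd percentile, by its high arrays labelled ERBB2, and its other probe set did not pass. With EGF 2 rose and 3 fell, against 17.2% and 18.9% of all genes, or 3 and 1 with equal array medians. Claudin CLDN1 fell by 1.04 on the log2 scale (limma adjusted p = 9.933e-07), while the call of NECTIN1 (0.51 ± 0.17, limma adjusted p = 0.03311) ended under 7 of 20 alternatives, with an adjusted p between 0.005185 and 0.3503. Among those 7 were leaving out vector replicate 1 (0.05876) or 3 (0.1112) and EGF replicate 1 (0.2147) or 3 (0.07977). Against EGF, 9 genes were higher and 3 lower in the arrays labelled ERBB2, where 12.8% and 16% of all genes were so, with OCLN at 2.23 ± 0.12 (limma adjusted p = 5.542e-11) and CLDN1 at 1.42 ± 0.12 (limma adjusted p = 2.17e-08).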
